A study of Mus musculus with 6 samples.

Results

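The endothelin system was followed in cultured mouse ovarian granulosa cells through 7 genes: the ligand genes Edn1, Edn2 and Edn3, the receptor genes Ednra and Ednrb, and the converting enzyme genes Ece1 and Ece2. They were picked by gene name as ligands, receptors and converting enzymes of the pathway, and all 7 were found among the 55860 genes of the deposited count and FPKM tables. The study compared 2 genotypes, Il22r-/- and Il22r+/+, with 3 libraries each. Il22r stands for the receptor of the cytokine interleukin-22, and the labels give neither the disrupted exon nor the strain or age of the mice. Cells of both genotypes had been separated from ovaries on a density gradient and kept for 12 h in DMEM-F12 with 10% fetal bovine serum, with no gonadotropin named. The question here was which parts of the endothelin system these cells transcribe and which of them differ between the genotypes.

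Endothelins are short peptides cut out of longer precursors. A furin-type protease first releases an inactive intermediate called big endothelin, and a membrane metalloprotease, endothelin-converting enzyme, then cuts it behind a tryptophan to give the active peptide. The peptides act on a pair of G protein-coupled receptors, type A and type B, that raise calcium through phospholipase C and make smooth muscle contract. In the rodent follicle, Edn2 is known for a brief rise in granulosa cells just before rupture, and contraction of the muscle layer around the follicle is thought to help expel the oocyte.

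The stretch of each ligand gene that encodes the active peptide shows how alike the ligands are and where the converting enzyme acts. Each stretch lies on the plus strand in exon 2, in the coding sequence, at chr13:42303649-42303714 for Edn1, chr4:120161951-120162016 for Edn2 and chr2:174761749-174761814 for Edn3 (mm10, GENCODE M21 transcripts). Lower case gives the first 60 bases of the 63 that encode the 21 residues of the active peptide, and the capitals are the last codon of the peptide, for tryptophan, with the next codon, so that the cut made in the protein falls between them.
Edn1: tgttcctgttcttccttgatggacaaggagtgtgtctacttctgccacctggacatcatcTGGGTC
Edn2: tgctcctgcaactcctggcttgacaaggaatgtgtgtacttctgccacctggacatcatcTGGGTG
Edn3: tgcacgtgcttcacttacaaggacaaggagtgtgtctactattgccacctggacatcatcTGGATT
Over these 63 bases Edn1 and Edn2 differed at 10 positions, Edn1 and Edn3 at 13, and Edn2 and Edn3 at 15. The encoded active peptides differed in 3 residues between Edn1 and Edn2 and in 6 residues between Edn3 and either of the others.

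Counted reads per library ranged over 14.95 M to 18.12 M for Il22r-/- and over 17.43 M to 17.7 M for Il22r+/+ (M, mega-reads). The targeted gene, taken to be Il22ra1, was read 5, 2 and 0 times in the Il22r-/- libraries, against 1, 5 and 4 times in the Il22r+/+ libraries, too few to check the genotype labels. Of the granulosa markers, Inha averaged 2605 ± 116 CPM in Il22r-/- and 3202 ± 429 CPM in Il22r+/+ (TMM-normalised counts per mega-read, SD, n = 3). Amh had 41 reads over the Il22r-/- libraries and 6 over the Il22r+/+ libraries, and Cyp19a1 had 1 and 36, so these markers were nearly absent. Fshr was also low, at 5.99 ± 1.10 CPM in Il22r-/- and 0.257 ± 0.183 CPM in Il22r+/+. Other markers of the list were well expressed. Foxl2 averaged 138 ± 32.0 CPM in Il22r-/- and 191 ± 13.3 CPM in Il22r+/+, and Inhba 2858 ± 188 and 1759 ± 144 CPM. Il22r-/- replicate 3 was the shallowest library and differed most from its group, and the fold changes of the tested members and the call counts of the lists were recomputed without it. Enough reads for the test were found for 15227 genes. The edgeR quasi-likelihood test called 45.7% of them between the genotypes (adjusted p under 0.05 after Benjamini and Hochberg), with 23.6% higher and 22.1% lower in Il22r-/-. When libraries were scaled by size alone, the share of calls that were higher was 63.6%, against 51.59% with TMM, and the log2 fold change of the median gene was 0.132, against 0.0291.

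Ece1 was the member that differed: its transcript was 2.05-fold lower in Il22r-/- than in Il22r+/+. Edn1 and Ednra, the other members with more than a trace of reads, were not called, and Edn2, Edn3, Ednrb and Ece2 were close to the limit of detection in both genotypes. Of the 7 members, 4 had enough reads for the test, and 1 of these 4 was called, beside the 45.7% of all tested genes.

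**Figure D1:**
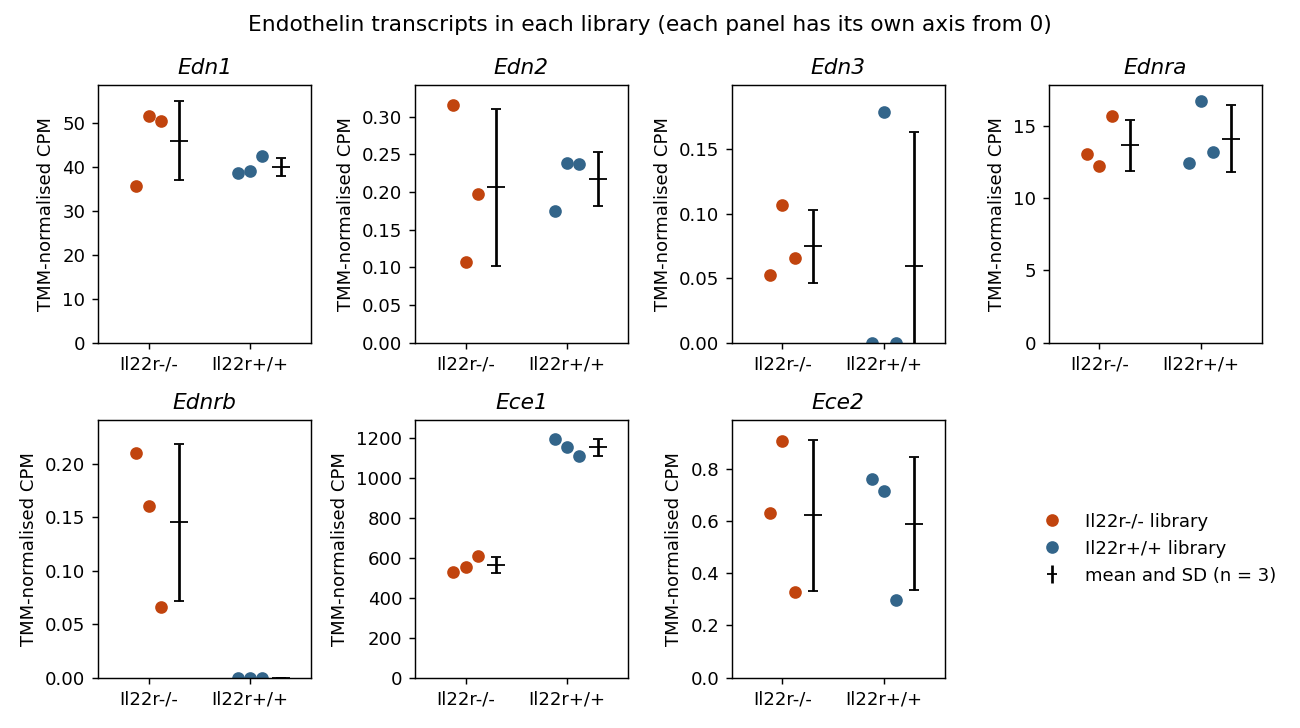
TMM-normalised CPM of the 7 endothelin genes in each library, Il22r-/- left and Il22r+/+ right, each panel with its own axis from 0. Points are libraries, and the bar beside them is the mean with its SD (n = 3). The 3 Il22r-/- libraries of Ece1 lie between 530 and 608 CPM, all below the Il22r+/+ libraries at 1111 to 1196 CPM, and Edn2, Edn3, Ednrb and Ece2 stay under 1 CPM in every library.

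Per length, the levels spanned several orders of magnitude. On the deposited FPKM scale (reads per kilobase of gene and per mega-read), Ece1 averaged 107.4 ± 8.54 in Il22r-/- and 223.7 ± 8.14 in Il22r+/+ (SD, n = 3). Edn1 followed with 21.7 ± 4.33 and 19.2 ± 1.04 FPKM, and Ednra with 2.51 ± 0.348 and 2.64 ± 0.427 FPKM. The next were Edn2 at 0.142 ± 0.0712 and 0.153 ± 0.0252 FPKM and Ece2 at 0.123 ± 0.0568 and 0.119 ± 0.0514 FPKM, whose libraries overlapped in both genotypes and so cannot be ordered. Edn3 had 0.0184 ± 0.00695 and 0.0149 ± 0.0258 FPKM, and Ednrb had 0.0343 ± 0.0171 FPKM in Il22r-/- with all 3 Il22r+/+ libraries at 0. Edn3 and Ednrb could not be ordered either. Among the tested protein-coding genes, Ece1 lay above 97.5% in Il22r-/- and above 99.1% in Il22r+/+, Edn1 above 82.8% and 78.9%, and Ednra above 27.9% and 29.6%.

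Among the ligands, nearly all transcript was Edn1, which encodes endothelin-1, the constrictor peptide best known from endothelium. Edn1 (ENSMUSG00000021367, chr13:42301476-42307990, plus strand) was covered by 680, 968 and 769 reads in the Il22r-/- libraries, against 659, 654 and 716 in the Il22r+/+ libraries. After TMM scaling these were 35.7, 51.6 and 50.5 CPM in Il22r-/-, against 38.5, 39.0 and 42.4 CPM in Il22r+/+. Il22r-/- replicate 1 was the lowest of all 6 libraries and the others of its genotype the highest, so the groups overlapped. The log2 fold change of 0.20 ± 0.13 (SE) did not pass the test (edgeR quasi-likelihood adjusted p = 0.247), and its 95% interval ran from -0.10 to 0.49, that is, from 0.936 to 1.41 times the Il22r+/+ level. Without Il22r-/- replicate 1 it passed, at a log2 fold change of 0.35 and an edgeR adjusted p of 0.0107, so 1 library decides this call; over all 16 alternatives its adjusted p reached 0.645.

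Edn2, the ligand tied to follicle rupture in rodents, and Edn3, the ligand of neural crest development, were barely detected. Edn2 (ENSMUSG00000028635, chr4:120161206-120167360) was read 6, 2 and 3 times in Il22r-/-, against 3, 4 and 4 times in Il22r+/+, which is 11 reads in each genotype. The pooled ratio of Il22r-/- to Il22r+/+ was 0.957, with an exact 95% interval from 0.376 to 2.43 that covers counting error only. Edn3 (ENSMUSG00000027524, chr2:174760619-174784042) had 1, 2 and 1 reads in Il22r-/-, against 0, 3 and 0 in Il22r+/+, a ratio of 1.28 with an interval from 0.216 to 8.71. At this depth no difference was detectable for either gene, and the Edn3 interval is too wide to limit one of several fold. Both genes were below the count filter; with no filter, edgeR gave adjusted p-values of 0.986 for Edn2 and 0.907 for Edn3. Edn1 made up 98.65% to 99.59% of the summed FPKM of the 3 ligands in Il22r-/- and 98.88% to 99.34% in Il22r+/+. The sum was 16.9, 24.5 and 24.2 FPKM in Il22r-/- and 18.7, 18.9 and 20.6 FPKM in Il22r+/+, a log2 difference of 0.15 with an exact two-sided permutation p of 0.4, where 0.1 is the smallest that 3 against 3 allows.

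The promoter of Edn1 is shown because motifs of known regulators were looked for in it on both strands. The letters searched were TGANTCA for the factor AP-1 and, for the GATA factors, AGATAA. The core of the hypoxia element was searched as ACGTG. The motif of STAT factors, which act behind cytokine receptors, was searched as TTCNNNGAA. The 300-base RefSeq window of Edn1, chr13:42301226-42301525 on the plus strand (GRCm38.p6), runs from 250 bases before the annotated start to 50 after it. In capitals are a match to the GATA letters at positions 9 to 14 and one to the hypoxia letters at positions 22 to 26, both on the minus strand and counted from the annotated start.
Edn1: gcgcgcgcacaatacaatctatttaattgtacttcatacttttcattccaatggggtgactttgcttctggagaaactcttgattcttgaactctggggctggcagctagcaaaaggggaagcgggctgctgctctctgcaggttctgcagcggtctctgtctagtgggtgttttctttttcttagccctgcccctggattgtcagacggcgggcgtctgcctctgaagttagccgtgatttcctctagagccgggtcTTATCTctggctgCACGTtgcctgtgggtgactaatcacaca
Of 32851 such windows, 11.2% held the GATA letters, 19.6% the hypoxia letters, 7.81% the AP-1 letters and 8.3% the STAT letters. The windows of Edn2, Edn3, Ednra and Ednrb held none of the 4 motifs, and that of Ece2 held the hypoxia letters at positions -92 to -88. These matches are letters in a window and say nothing of binding.

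Of the receptors, only type A was transcribed above traces. Ednra (ENSMUSG00000031616, chr8:77663031-77724464, minus strand), the receptor that mediates constriction, was covered by 248, 229 and 238 reads in the Il22r-/- libraries, against 212, 280 and 222 in the Il22r+/+ libraries. These were 13.0, 12.2 and 15.6 CPM in Il22r-/- and 12.4, 16.7 and 13.1 CPM in Il22r+/+. The groups overlapped fully, with the highest and the second lowest library both from Il22r+/+. The log2 fold change was -0.05 ± 0.15 (edgeR quasi-likelihood adjusted p = 0.81), with a 95% interval from -0.39 to 0.29, or from 0.764 to 1.22 times the Il22r+/+ level. Its sign turned to 0.05 with library size alone, so no direction is given.

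Ednrb (ENSMUSG00000022122, chr14:103814625-103844402, minus strand) encodes the type B receptor, which binds all 3 endothelins and clears them in other tissues. It was read 4, 3 and 1 times in Il22r-/- and 0 times in every Il22r+/+ library. These were very few reads. The pooled 8 reads are 0.151 CPM (exact 95% interval 0.0652 to 0.297), and the matching upper limit for 0 reads in Il22r+/+ is 0.0727 CPM. A floor of 3 reads over the Il22r+/+ group is 0.0591 CPM. Against that floor, the 8 pooled reads, taken without their counting error, put Ednrb at least 2.55-fold higher in Il22r-/-. Without Il22r-/- replicate 1 this was at least 1.99-fold. With the counting error of both groups, the exact 95% interval of the ratio began at 1.63. It was below the count filter, and with no filter it did not pass (edgeR adjusted p = 0.0836); the exact two-sided permutation p over libraries was 0.1, the smallest this design allows. Markers of some other cell types also moved. The summed CPM of 12 macrophage markers was 29.5 to 89.9 in Il22r-/- and 9.13 to 11.7 in Il22r+/+, with all 10 tested members higher. The sum of 12 theca and stromal markers was 234 to 364 CPM in Il22r-/- and 418 to 510 CPM in Il22r+/+. This lower sum rests on Dcn, at 10.6 ± 2.59 CPM in Il22r-/- and 242.7 ± 64.2 CPM in Il22r+/+. Dcn was the only gene of that list called lower. Of its 9 tested genes 3 were called higher, beside 23.6% of all tested genes. Of 10 neural crest and melanocyte markers, whose cells use Ednrb, Sox10, Dct, Tyr, Tyrp1 and Foxd3 had 0 reads in every library, and the list summed to 4.53 to 12.9 CPM in Il22r-/- and 4.21 to 5.09 CPM in Il22r+/+. The part of such cells in the Ednrb reads was not tested. With 0.1 FPKM added, the log2 ratio of Ednra to Ednrb was 4.05, 4.09 and 4.70 in Il22r-/- and 4.60, 5.01 and 4.68 in Il22r+/+, a difference of -0.48 (exact two-sided permutation p = 0.3) whose size the added value sets.

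Ece1, the main endothelin-converting enzyme, was lower in Il22r-/- in every library. Ece1 (ENSMUSG00000057530, chr4:137862237-137965229, plus strand) was covered by 10099, 10353 and 9252 reads in the Il22r-/- libraries, against 20443, 19354 and 18754 in the Il22r+/+ libraries. After scaling these were 530, 552 and 608 CPM in Il22r-/-, against 1196, 1155 and 1111 CPM in Il22r+/+. The groups did not overlap, as was so for 27.3% of all tested genes in this direction, and the lowest Il22r+/+ library stood 1.83-fold above the highest Il22r-/- library. The log2 fold change was -1.03 ± 0.09 (95% interval -1.23 to -0.84), so Ece1 fell 2.05-fold (edgeR quasi-likelihood adjusted p = 8.30e-06). In bulk RNA, fewer cells that express a gene and less RNA per cell cannot be told apart. Over the 16 alternatives, leaving out each library included, the log2 fold change stayed between -1.11 and -0.93 and the largest adjusted p was 0.000648.

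**Figure D2:**
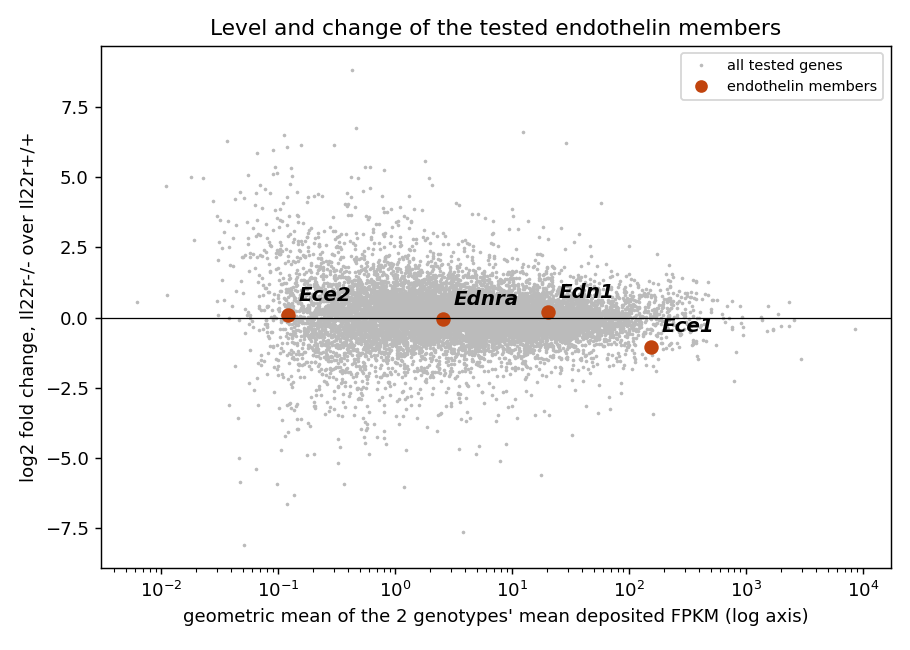
Log2 fold change (Il22r-/- over Il22r+/+, edgeR) against the geometric mean of the genotypes' mean FPKM on a log axis, for 15217 tested genes in grey and the 4 tested endothelin members in orange; 10 genes at 0 FPKM in one genotype are not drawn. Ece1 stands at the right among the highly expressed genes and at -1.03, and Edn1, Ednra and Ece2 lie near 0.

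Ece1 was among the abundant transcripts. The tested protein-coding genes that averaged 100 FPKM or more in Il22r+/+, mitochondrial genes left out, numbered 358. Of these, 252 were called, 156 of them lower, and 49, Ece1 included, had a log2 fold change at or below that of Ece1. Ece1 lies 2.11 Mb from Il22ra1 on chromosome 4, and Edn2 15.6 Mb. Within 1 Mb of Il22ra1 the test called 14 of 30 genes (46.7%), 4 of them higher and 10 lower. Within 2.5 Mb, Ece1 included, these were 44 of 80 (55%), 14 higher and 30 lower. Within 10 Mb they were 123 of 250 (49.2%), 49 higher and 74 lower. Over all tested genes 45.7% were called, 23.6% higher and 22.1% lower. The part of the locus in the change of Ece1 was not tested. The summed level of 12 endothelial markers was 8.999 to 13.98 CPM in Il22r-/- and 8.71 to 10.5 CPM in Il22r+/+; 2 of the 6 tested rose and 1 fell, and Cldn5, Emcn, Tie1 and Sox17 had 0 reads in Il22r+/+. The summed level of 10 ovarian surface and mesothelial markers was 35.7 to 57.1 CPM in Il22r-/- and 689 to 701 CPM in Il22r+/+, with 6 of 10 lower, 0 higher and none at 0 reads. Gpm6a made up the largest part of the Il22r+/+ sum, at 387 ± 9.77 CPM against 8.05 ± 2.06 CPM in Il22r-/-. Krt7, Krt19, Muc16 and Wt1 of this list were not called (log2 fold changes 0.98, 0.67, 0.006 and -0.18). The part of such cells in the change of Ece1 was not tested.

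Ece1 has several start sites that give isoforms with different first exons, and the gene-level reads add all of them. RefSeq lists 4 start windows for it, and the first and the third are shown as an upstream and an internal start. The first is chr4:137861987-137862286 and the third chr4:137913308-137913607 (GRCm38.p6, plus strand), each from 250 bases before a start to 50 after it.
Ece1 upstream start: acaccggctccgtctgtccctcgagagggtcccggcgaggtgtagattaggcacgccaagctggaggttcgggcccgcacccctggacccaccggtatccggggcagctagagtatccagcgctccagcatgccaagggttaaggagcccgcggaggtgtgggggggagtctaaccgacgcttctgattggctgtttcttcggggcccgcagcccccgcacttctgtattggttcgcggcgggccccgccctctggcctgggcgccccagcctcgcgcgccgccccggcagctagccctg
Ece1 internal start: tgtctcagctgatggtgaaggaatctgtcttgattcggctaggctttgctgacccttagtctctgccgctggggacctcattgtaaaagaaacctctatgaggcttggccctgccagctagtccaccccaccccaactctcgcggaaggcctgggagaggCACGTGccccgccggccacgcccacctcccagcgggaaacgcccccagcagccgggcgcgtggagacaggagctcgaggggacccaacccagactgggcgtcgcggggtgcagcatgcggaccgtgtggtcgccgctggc
The capitals in the internal window mark the hypoxia letters, which match on both strands in overlap at positions -90 to -85. The other 3 windows of Ece1 held none of the 4 motifs, the STAT motif included. GC content was 69.3% in the first window and 65.3% in the third. The deposited counts cannot tell which start the lower Ece1 reads came from.

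Ece2 (ENSMUSG00000022842, chr16:20629828-20646485, plus strand), the related enzyme that works at acid pH and is known from neural tissue, was read 12, 17 and 5 times in the Il22r-/- libraries, against 13, 12 and 5 times in the Il22r+/+ libraries. These were 0.630, 0.907 and 0.328 CPM in Il22r-/- and 0.760, 0.716 and 0.296 CPM in Il22r+/+, with replicate 3 lowest in both genotypes. The log2 fold change of 0.10 ± 0.51 did not pass (edgeR quasi-likelihood adjusted p = 0.891), and its interval from -1.04 to 1.23 covers changes of over 2-fold either way. Another gene, Gm49333, shares 57.5% of the exon length of Ece2 on the same strand and had 0 reads in all 6 libraries. How reads in shared exons were counted is not given in the sources used here, so the level of Ece2 is uncertain. With 0.1 FPKM added, the log2 ratio of Ece1 to Ece2 was 8.94 ± 0.468 in Il22r-/- and 10.0 ± 0.323 in Il22r+/+ (SD, n = 3), a difference of -1.08 with an exact two-sided permutation p of 0.1, the smallest possible here. With 0.01 FPKM added the difference was -1.10, but the groups overlapped (9.55, 9.12 and 10.6 in Il22r-/-, against 10.5, 10.5 and 11.6 in Il22r+/+) and the exact p was 0.3, so the separation rests on the added value.

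Proteases listed for endothelin breakdown and for other peptide processing moved in both directions. Of 10 listed, 6 were tested, 1 rose and 3 fell, with a median log2 fold change of -0.31 against 0.0291 over all tested genes, of which 23.6% rose and 22.1% fell. Mme, the neprilysin that degrades endothelins, rose to 28.1, 12.0 and 17.0 CPM in Il22r-/-, against 6.26, 6.62 and 8.41 CPM in Il22r+/+ (log2 fold change 1.43 ± 0.31, edgeR quasi-likelihood adjusted p = 0.00592). Its Il22r-/- libraries varied among themselves. Mmel1, a relative of neprilysin, averaged 5.79 ± 1.46 CPM in Il22r-/- and 10.5 ± 3.01 CPM in Il22r+/+ (-0.86 ± 0.25, edgeR adjusted p = 0.0189), a call lost without Il22r+/+ replicate 1 or replicate 3 (adjusted p = 0.0845 and 0.0746). Pcsk5, a furin-like convertase, fell to 115.5 ± 12.0 CPM in Il22r-/-, against 276.7 ± 28.9 CPM in Il22r+/+ (-1.26 ± 0.10, edgeR adjusted p = 6.97e-06). Furin was the other gene that fell (log2 fold change -0.45), while Ctsa and Pcsk7 did not pass. Kel and Cma1, proteases that can also cut big endothelins, had 0 reads in every library.

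**Figure D3:**
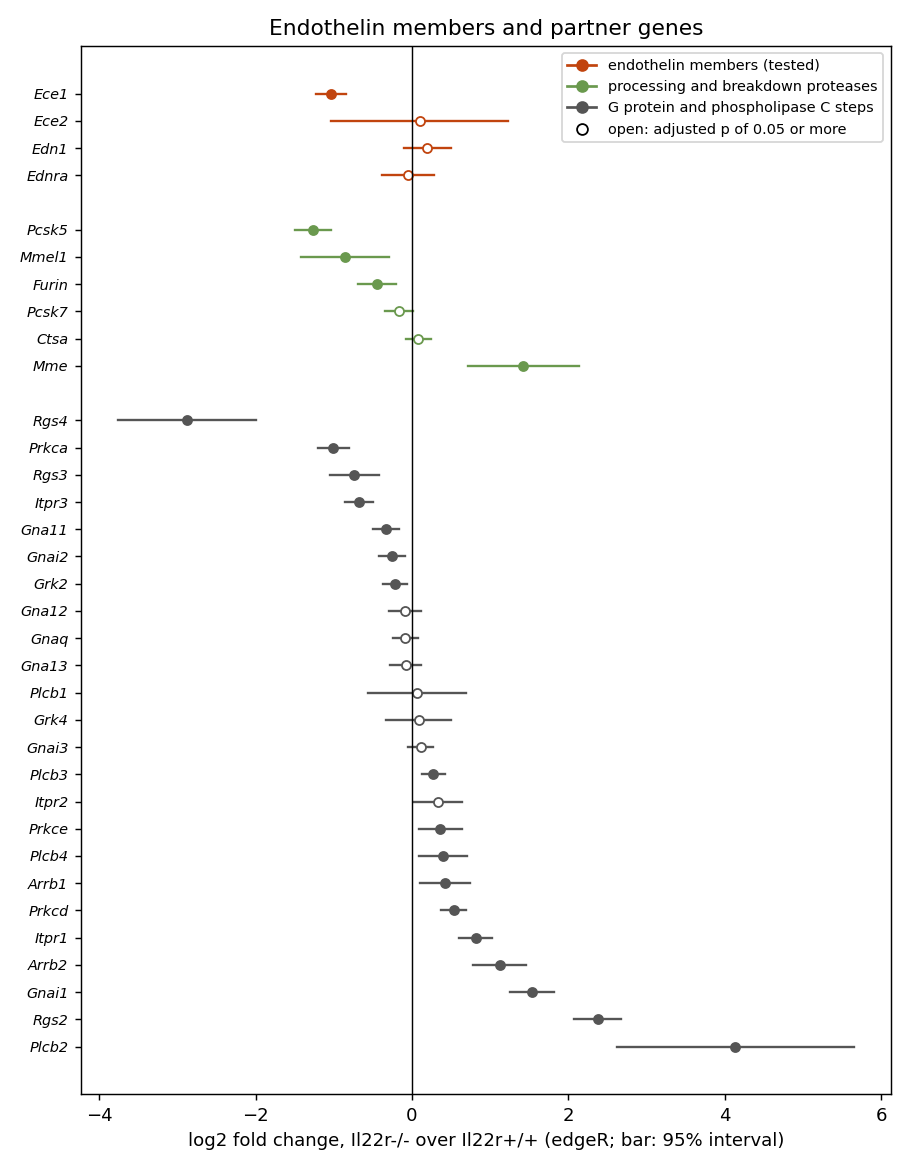
Log2 fold change (Il22r-/- over Il22r+/+) with its 95% interval for the 4 tested endothelin members (orange), 6 tested proteases (green) and 24 tested genes of receptor signalling (grey), from the edgeR fit; filled points passed the test at an adjusted p of 0.05. Ece1, Pcsk5, Mmel1 and Furin lie below 0 and Mme above it, and the signalling genes spread to both sides.

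The steps behind the receptors also split. Of 25 listed genes for G proteins, phospholipase C, calcium release, protein kinase C and receptor shut-off, 24 were tested, 10 rose and 7 fell (median log2 fold change 0.10), beside the 23.6% and 22.1% of all tested genes called in these directions. Gnaq, a G protein subunit that links both receptors to phospholipase C, did not pass (log2 fold change -0.09, edgeR quasi-likelihood adjusted p = 0.361). Gna11, another G protein subunit of the list, was called lower (log2 fold change -0.33 ± 0.07, edgeR adjusted p = 0.00417). Rgs2, which switches the Gnaq subunit off, rose to 31.3 ± 4.26 CPM in Il22r-/-, against 6.03 ± 0.156 CPM in Il22r+/+ (2.37 ± 0.13, edgeR adjusted p = 6.32e-07). Rgs4, another such switch, fell to 0.530 ± 0.336 CPM in Il22r-/-, against 4.02 ± 0.941 CPM in Il22r+/+ (-2.88 ± 0.40, edgeR adjusted p = 0.000218). Plcb2 rose at a very low level, with 43 reads in Il22r-/- and 2 in Il22r+/+ (log2 fold change 4.14 ± 0.68, edgeR adjusted p = 0.000684). Rgs5, a marker of vessel-wall cells, was below the filter with 8 and 5 reads.

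Genes known to control endothelin transcription were called in 13 of 18 tested cases, 5 higher and 8 lower, with a median log2 fold change of -0.06; over all tested genes 45.7% were called, 23.6% higher and 22.1% lower. Pgr, the progesterone receptor that Edn2 depends on in mouse ovulation, had 81 reads in Il22r-/- and 7 in Il22r+/+ (3.40 ± 0.48, edgeR quasi-likelihood adjusted p = 0.000253), while Edn2 stayed at 11 reads in each. Nr5a2 rose to 174 ± 26.9 CPM in Il22r-/-, against 52.3 ± 3.66 CPM in Il22r+/+. Klf2, known in endothelium to lower Edn1, fell to 9.94 ± 2.74 CPM in Il22r-/-, against 23.2 ± 1.298 CPM in Il22r+/+ (-1.23 ± 0.18, edgeR adjusted p = 0.000412). Fos and Jun, the AP-1 subunits, did not pass (log2 fold changes -0.01 and 0.19). Factors of the other searched motifs were called in both directions. Gata4 fell and Gata6 rose (log2 fold changes -1.08 and 0.62). Of the hypoxia factors, Epas1 rose (1.21) while Hif1a and Arnt fell (-0.28 and -0.40). Stat3 fell (-0.91).

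In the wider list of follicle rupture and ovulation, 4 of 20 tested genes rose and 12 fell, with a median log2 fold change of -0.49. The share that rose was near the 23.6% of all tested genes, and the share that fell was above their 22.1%. Besides Pgr, the largest called changes were those of Vcan, a matrix proteoglycan, at 49.99 ± 9.98 and 4.63 ± 0.506 CPM in Il22r-/- and Il22r+/+, and of the cytokine gene Il6 at 0.264 ± 0.00238 and 1.95 ± 0.766 CPM. Contractile genes, the downstream machinery of type A signalling in muscle, were called in 9 of 12 tested cases, 6 higher and 3 lower (median log2 fold change 0.25), beside 45.7% of all tested genes called, 23.6% higher and 22.1% lower. Actg2, Myh11 and Des, all smooth muscle markers, had log2 fold changes of 4.97 ± 0.41, 4.29 ± 0.45 and 2.02 ± 0.44. Their levels were low, at 16.9, 13.9 and 1.92 CPM on average in Il22r-/- and 0.532, 0.706 and 0.474 CPM in Il22r+/+. Acta2, Mylk and Synpo2 were also called higher (log2 fold changes 0.74, 0.32 and 1.27). Of these, Acta2 was abundant, at 462 ± 126 CPM in Il22r-/- and 277 ± 26.8 CPM in Il22r+/+. The 3 lower genes were Tagln (-0.96 ± 0.21), Myl9 (-0.75 ± 0.13) and Lmod1 (-0.63 ± 0.20), and Cnn1 (-0.19), Smtn (0.03) and Cald1 (0.18) did not pass. The list's call count was 4 on unfiltered FPKM values and 5 without Il22r+/+ replicate 1 or replicate 3. In a list of 12 theca and stromal markers 3 of 9 tested genes rose and 1 fell, a call share near the 45.7% of all tested genes.

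Profiles over the 6 libraries were compared by the root mean square difference of log2 CPM after centring each gene on its own mean, among 10534 protein-coding genes with at least 5 CPM. The 3 genes nearest to Ece1 were Prkca (0.0318), Smad7 (0.0444) and Slc4a2 (0.0451), all lower in Il22r-/- by a similar amount. Prkca, a protein kinase C gene of the signalling list, had 21.7, 22.7 and 24.4 CPM in Il22r-/- and 47.7, 47.5 and 43.1 CPM in Il22r+/+. Nearest to Edn1 were Tonsl (0.0485), Lpin2 (0.0615) and Ckap2 (0.0755), which shared its low value in Il22r-/- replicate 1, and nearest to Ednra were Pcyox1l (0.058), Odr4 (0.0657) and Cdk8 (0.0714). None of the 6 genes nearest to Edn1 or Ednra was called. With 6 libraries in 2 genotypes, the likeness is a description.

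**Figure D4:**
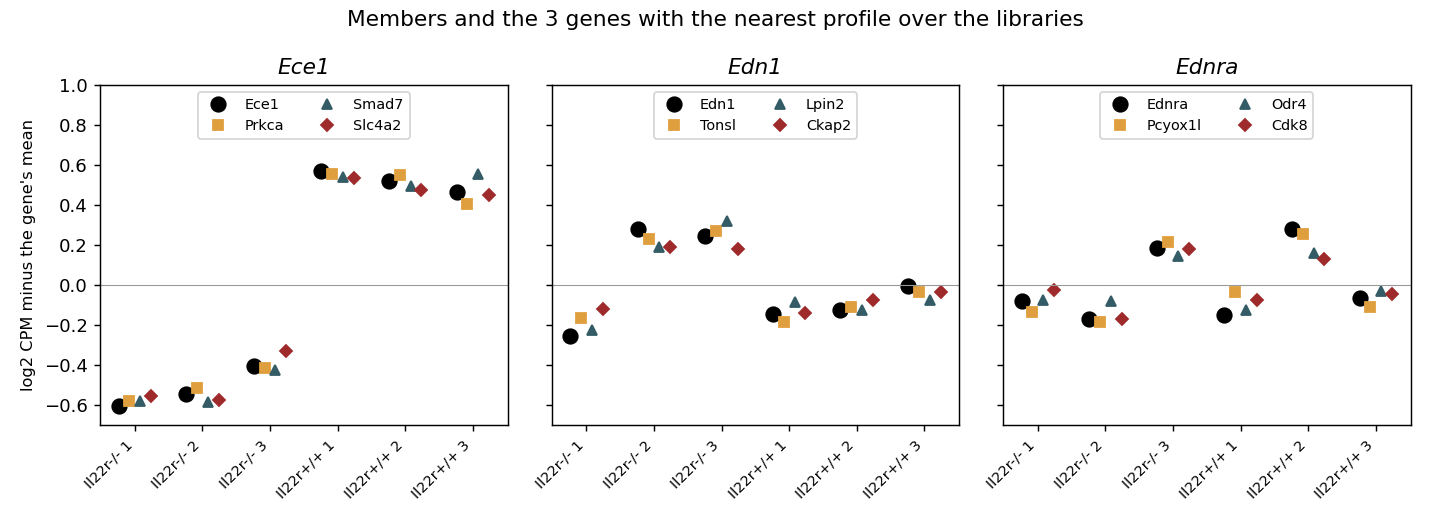
Log2 CPM of Ece1, Edn1 and Ednra (black) and of the 3 genes nearest to each in profile, each gene centred on its mean over the 6 libraries, with Il22r-/- libraries left of Il22r+/+ libraries. In the first panel the Il22r-/- libraries lie below 0 and the Il22r+/+ libraries above it; in the other 2 panels the genotypes overlap.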

How the data were processed

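RNA-seq libraries made from total RNA of granulosa cells, per the labels, were grouped by the genotype and number in their titles. Raw read counts per gene were deposited by the authors; the submitters' processing notes name the build mm10 and the counter featureCounts, version 1.5.0-p3. FPKM values were also deposited by the authors; set against the count table they follow the same counts, with a library scaling not given in the sources used here; aligner and strand setting are not given either.

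Counts were filtered with filterByExpr, TMM-normalised and tested in edgeR 4.0.16 (glmQLFit with robust estimation, glmQLFTest, genotype as the only term; R 4.3.3). P-values were adjusted by Benjamini-Hochberg over all 15227 tested genes. Standard errors are the log2 fold change over the root of the quasi-likelihood F. The step was tested on simulated counts. Since the labels do not say whether libraries came from separate animals or cultures, p-values measure the spread between these libraries, which may be technical. Replicates differed by more than sampling noise (chi-square per gene 4.66 to 27), so none was counted as a duplicate.

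Members and gene lists were chosen with earlier results of these data known. Named from each list were up to 3 called genes by size of change, or 2 by abundance if it had no call. The 3 nearest profiles per member of at least 1 CPM were also named. Named after their values were seen were Furin, Ctsa, Pcsk7, Kel, Cma1, Gnaq, Gna11, Rgs5, Tagln, Myl9, Lmod1, Cnn1, Smtn and Cald1. So were Fos, Jun, Gata4, Gata6, Hif1a, Epas1, Arnt, Stat3, Inha, Amh, Cyp19a1, Foxl2, Inhba and the markers at 0. Krt7, Krt19, Muc16, Wt1, Acta2, Mylk and Synpo2 were also named after their values were seen. A gene that this rule picks is not reported here. Exon overlaps came from GENCODE M21 and promoters from RefSeq. Balances per length used log2(FPKM + 0.1). Alternatives were DESeq2 1.42.0, its size factors, library size alone, limma 3.58.1 (voom, and log2 FPKM with 1 or 0.1 added), other filters, a replicate block and leaving out each library.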

Additional observations from a re-analysis of the deposited data

How the results depend on the processing

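Ece1 kept its direction and its call under all 16 alternatives. The count of called endothelin members stayed at 1 except without Il22r-/- replicate 1; the range over left-out libraries was 1 to 2. Leaving out 1 library moved the log2 fold change of Edn1 between 0.094 and 0.35 (past the threshold at 0.35), of Ednra between -0.18 and 0.086 and of Ece2 between -0.28 and 0.35. That of Ednra was 0.052 with library size alone, which moves the median gene up by about the same amount. The Ednra to Ednrb difference was -2.13 with 0.01 FPKM added, where the added value replaces Ednrb readings at 0. The groups then did not overlap (5.33, 5.56 and 6.83 in Il22r-/-, against 7.87, 8.29 and 7.96 in Il22r+/+). The exact two-sided permutation p was 0.1, the smallest possible, against 0.3 with 0.1 FPKM added, so this outcome rests on the added value.

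Replicate numbers did not pair the libraries: the same-numbered pairs correlated at 0.026, -0.0406 and -0.0278, and not every library correlated best with its own number. With the replicate block 6405 genes were called instead of 6963, the log2 fold change of Ece1 was -1.04 (edgeR adjusted p = 0.000135), and no member changed its call.

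Counts of called list genes moved by over 1.5 times for the proteases (4, lowest 2), contractile genes (9, lowest 4), endothelial markers (3, lowest 0), macrophage markers (10, range 3 to 12), neural crest markers (1, lowest 0), oocyte markers (1, lowest 0) and granulosa markers (7, highest 12); the cause was not tested. For the 30 list genes that the naming rule chose, 428 of 463 values under alternatives kept call and direction, 35 lost the call and 0 reversed. Ece2 has no value under the stricter filter, which it failed. All motif matches lay in the last 150 bases of their windows. Depth limits Edn2, Edn3, Ednrb and Ece2, where 3 reads per group equal 0.0566 CPM in Il22r-/- and 0.0591 CPM in Il22r+/+.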

Other observations

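Gm47118, a non-coding gene on the strand opposite to Edn1, overlaps 35 bases (1.64%) of its exons and was looked at after its values were seen. It was read 3, 4 and 16 times in Il22r-/-, against 24, 26 and 17 times in Il22r+/+, with a log2 fold change of -1.54 ± 0.60 that did not pass (edgeR quasi-likelihood adjusted p = 0.0565). Il22r-/- replicate 3 was close to the Il22r+/+ libraries and the others of its genotype were not. The antisense gene 4933431K23Rik, which overlaps 1.66% of the exons of Ednra, was read 30, 17 and 10 times in Il22r-/-, against 9, 2 and 17 times in Il22r+/+, and did not pass either (edgeR adjusted p = 0.228). Strand use in the counting is not given, so reads in the overlaps cannot be assigned to a strand.

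Among the granulosa markers, 5 of 12 tested genes rose in Il22r-/-, 2 fell and 5 did not pass. Over all tested genes 23.6% were called higher and 22.1% lower. The largest called change was that of the gonadotropin receptor gene Fshr (5.99 ± 1.10 CPM in Il22r-/- and 0.257 ± 0.183 CPM in Il22r+/+). By size of change, Nr5a2 (174 ± 26.9 CPM in Il22r-/- and 52.3 ± 3.66 CPM in Il22r+/+) and Amhr2 (103 ± 5.99 CPM in Il22r-/- and 37.1 ± 3.97 CPM in Il22r+/+) followed. In the short endothelial list, Pecam1 and Kdr rose and Tek fell, all below 5 CPM in every library (log2 fold changes 1.42, 2.52 and -0.70); none of the 3 calls was kept on log2(FPKM + 1) values without a filter. Of the oocyte markers, Kit, which is also a receptor gene of other cell types, rose to 3.53 ± 0.549 CPM in Il22r-/-, against 0.157 ± 0.147 CPM in Il22r+/+.

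The markers of other cell types with the largest called changes were as follows. Among macrophage markers, C1qa, C1qb and Tyrobp rose by 3.75, 3.53 and 4.61 on the log2 scale. They were read rarely, with 177, 255 and 114 pooled reads in Il22r-/- and 12, 20 and 4 in Il22r+/+. The Il22r-/- libraries varied, for C1qb at 4.46, 7.84 and 1.51 CPM. Among ovarian surface and mesothelial markers, Upk1b, Gpm6a and Bnc1 fell, with log2 fold changes of -5.11, -5.60 and -6.02, while Krt7, Krt19, Muc16 and Wt1 were not called. Of the theca and stromal markers, Dcn fell to 10.6 ± 2.59 CPM in Il22r-/-, against 242.7 ± 64.2 CPM in Il22r+/+, while Col1a2 and Thy1 rose (log2 fold changes 5.24 and 4.40). Thy1 had 168 reads in Il22r-/- and 7 in Il22r+/+, and it passed in 13 of 15 alternatives.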
